A study of Homo sapiens with 6 samples.

Results

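The stanniocalcin genes STC1 (Entrez gene ID 6781) and STC2 (Entrez gene ID 8614) are described here in RBE, an established human cholangiocarcinoma (bile duct cancer) cell line. They are 2 of the 16200 genes in the deposited expression table, and both are present in it by symbol. The pair was chosen from its read counts in this same comparison, because both genes were lower by a similar amount with little spread. Their difference between the groups is therefore a description and carries no test. The study has 6 poly(A)-enriched RNA libraries in 2 groups of 3. The group labelled NC is the reference, and the group labelled sgKCNQ3 carries the usual short name for a single guide RNA against KCNQ3, a voltage-gated potassium channel subunit. All libraries come from RBE cells, and the labels give no treatment, time point or dose. The study asked which genes respond to loss of KCNQ3, with ERK1/2 signalling as its point of interest. The sources used here do not say what kind of guide effector was used, or whether the sgKCNQ3 cells are 1 clone or a pool. Nor do the labels say that the libraries came from separate cultures, so p-values reflect only how these samples vary, and that variation may be technical.

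Stanniocalcins are secreted, disulfide-rich glycoproteins first known as fish hormones that lower calcium uptake. In mammals they act locally. Both human proteins inhibit the pappalysins PAPP-A and PAPP-A2, metalloproteases that cut IGF binding proteins and so release insulin-like growth factor (IGF) for its receptor. STC1 has also been linked to phosphate transport and to mitochondria, and STC2 to the limiting of store-operated calcium entry through STIM1. STC2 is a known target of ATF4, the transcription factor of the integrated stress response, and both genes respond to low oxygen through HIF-1.

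Of the 2 genes, STC2 was matched in the RefSeq promoter sequences (GRCh38.p14). In the 250 bases before its RefSeq start, 63.6% were G or C, against a median of 58.0% over 35116 promoters. Of 8 motifs searched on both strands, only the CCAAT box (CCAAT) was found, once, with its first base 100 bases before the start. The stretch around it is shown because it holds the sole match, at chr5:173328497-173328526, minus strand, with the box in capitals as its reverse complement.
STC2: ccggggtctcggATTGGtccagccgccggg
A CCAAT box stood in 32.0% of all promoter windows of this length. The letters of the other 7 motifs were not in the window: the E-box (CACGTG, in 6.34% of promoters), the hypoxia response core that it contains (ACGTG, 18.5%), AP-1 (TGANTCA, 6.57%), CRE (TGACGTCA, 1.65%), the C/EBP-ATF composite (TGATGNAA, 3.14%), ETS (CCGGAA, 14.5%) and the GC box (GGGCGG, 42.6%). GENCODE starts the longest STC2 transcript upstream of this window, so the window is not upstream of the gene in that annotation.

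Both genes share a layout that the choice did not use. In GENCODE release 29 (GRCh38), STC1 spans 23841915 to 23854807 of chromosome 8 and STC2 spans 173314713 to 173329503 of chromosome 5, both on the minus strand. Each has 4 exons in its longest coding transcript, of 3883 bases for STC1 and 5353 bases for STC2, and the encoded proteins have 247 and 302 amino acids. Coding sequence takes 741 and 906 of those bases, so both mRNAs are mostly untranslated sequence. GC content was 43.8% for STC1 and 51.7% for STC2.

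Library totals were 15601283 to 16089500 estimated counts. KCNQ3 itself had 256, 257 and 252 counts in the NC libraries, against 222, 206 and 191 in the sgKCNQ3 libraries. Its log2 fold change was -0.33 (SE 0.0841, edgeR quasi-likelihood adjusted p 0.00446), a call lost on TPM, and its groups did not overlap. Of 12565 genes tested, 29.1% were called at an adjusted p under 0.05, 14.0% higher and 15.1% lower in sgKCNQ3. Of the called genes, 48.2% were higher under TMM scaling, 64.5% by library size alone and 80.8% on the authors' TPM, a level per transcript length. Most biliary markers were plainly present, but CFTR had at most 3 counts in any library. The duct keratin gene KRT7 stood at 1404 ± 17.7 CPM (counts scaled to library size with TMM factors) in NC (SD, n = 3). Of 11 tested biliary markers, 7 were called higher and none lower, and their summed level was 3730 to 3830 CPM without TMM scaling in NC and 4260 to 4410 in sgKCNQ3. Of 5 tested hepatocyte markers, 2 were called higher, with a summed level of 110 to 113 CPM in NC and 116 to 126 in sgKCNQ3. Most of that sum was SERPINA1, at 99.2 CPM in NC and 102.8 in sgKCNQ3 with TMM scaling, which was not called. ALB had at most 3 counts in any library, and all 5 endothelial markers had under 10. Of 3 tested fibroblast markers, PDGFRA was called higher, and the fibroblast list summed to 22.6 to 24.5 CPM in NC and 31.0 to 34.9 in sgKCNQ3. Of 2 tested leukocyte markers, CD68 was called lower, with a summed level of 87.0 to 93.4 in NC and 72.8 to 78.8 in sgKCNQ3, while PTPRC had at most 2 counts. The part of these markers in the results below was not tested.

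STC1 mRNA was lower by about the same share in every sgKCNQ3 library. The NC libraries held 5339, 5318 and 5327 STC1 counts, and the sgKCNQ3 libraries held 3636, 3682 and 3563. In CPM the NC values of STC1 were 346.1, 335.9 and 340.5, and the sgKCNQ3 values were 228.5, 233.3 and 223.0. The groups were far apart: the highest sgKCNQ3 library reached 0.695 of the lowest NC library. Among all tested genes, 21.3% had every sgKCNQ3 library below every NC library and 20.4% had every one above, and nothing is read from this for the stanniocalcins, which were chosen for it. Mean STC1 went from 340.8 ± 5.15 to 228.3 ± 5.19 CPM (SD over 3 libraries), a log2 fold change of -0.58 (SE 0.0368), or a change of -33.0%. In bulk RNA, fewer cells making the transcript and less transcript per cell cannot be told apart.

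STC2 showed nearly the same picture at a lower level. The NC libraries carried 4283, 4258 and 4231 STC2 counts, and the sgKCNQ3 libraries 2805, 2947 and 2772. Scaled to CPM, STC2 measured 277.7, 268.9 and 270.5 across NC, compared with 176.2, 186.8 and 173.5 across sgKCNQ3. As for STC1, the highest sgKCNQ3 library, here replicate 2, reached 0.695 of the lowest NC library. Mean STC2 went from 272.4 ± 4.67 to 178.8 ± 7.01 CPM (SD, n = 3 each), a log2 fold change of -0.61 (SE 0.039), or -34.3%. In counts and in CPM, replicate 2 was the highest sgKCNQ3 library and replicate 1 the highest NC library for both genes.

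**Figure D1:**
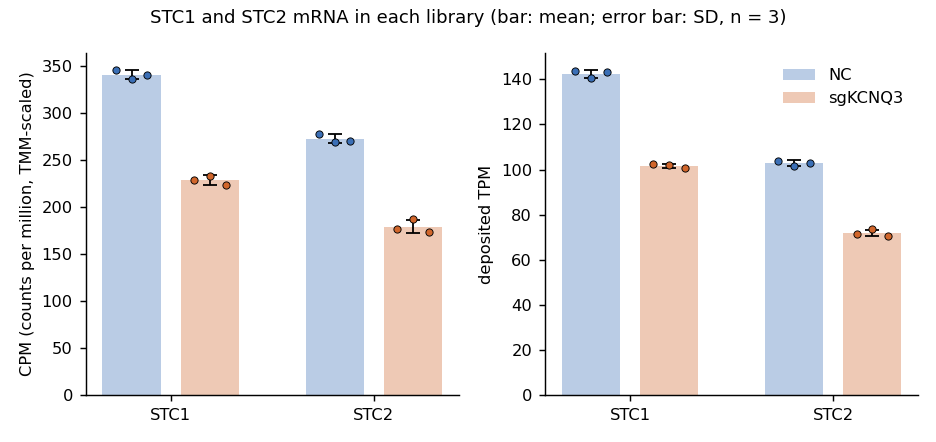
STC1 and STC2 in each of 6 libraries, as TMM-scaled CPM (left axis panel) and as the authors' TPM (right axis panel); bars are means, error bars the SD of 3 libraries, points single libraries, blue NC and orange sgKCNQ3. The sgKCNQ3 points lie between 223.0 and 233.3 CPM for STC1 and between 173.5 and 186.8 for STC2, all below the NC points.

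The pair was chosen partly for its small spread in these counts, so the spread is given as a description. Raw STC1 counts had an SD of 10.5 in NC and 60.0 in sgKCNQ3, and raw STC2 counts had an SD of 26.0 and 93.0. After scaling, the coefficient of variation in CPM was 1.51% and 2.27% for STC1 in NC and sgKCNQ3, and 1.72% and 3.92% for STC2.

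The authors' length-scaled values gave a slightly smaller difference. STC1 had 143.7, 140.4 and 143.4 TPM in the NC libraries and 102.3, 101.8 and 100.7 TPM in the sgKCNQ3 libraries, so that the mean changed by -28.7%. For STC2 the TPM values were 104.0, 101.5 and 102.8 across NC, compared with 71.28, 73.55 and 70.69 across sgKCNQ3, a change of -30.1%. In FPKM the changes were -31.6% and -32.9%. On each of these scales the groups did not overlap. The deposited FPKM of all genes added up to 656809 to 668732 per NC library but only 630332 to 642515 per sgKCNQ3 library, and TPM divides by that sum. With each library's trends over transcript length and GC content removed, the log2 fold changes were -0.60 for STC1 and -0.65 for STC2.

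Both genes are abundant in these cells. By mean NC TPM, a level per length, STC1 ranked 1084 of 16200 genes (the top 6.69%) and STC2 ranked 1488 (the top 9.19%). In sgKCNQ3 the ranks were 1519 and 2116. The following places describe genes that were chosen for this difference. Among the 571 tested genes at least as abundant as STC1 by mean log2 CPM, 1 had a lower log2 fold change, and it was DUSP5 (-0.70), which encodes an ERK phosphatase. Among the 772 at least as abundant as STC2, the sole one was again DUSP5. Over all tested genes, 140 (1.11%) had a lower log2 fold change than STC1 and 116 (0.923%) a lower one than STC2. DUSP5 is named after its value was seen.

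**Figure D2:**
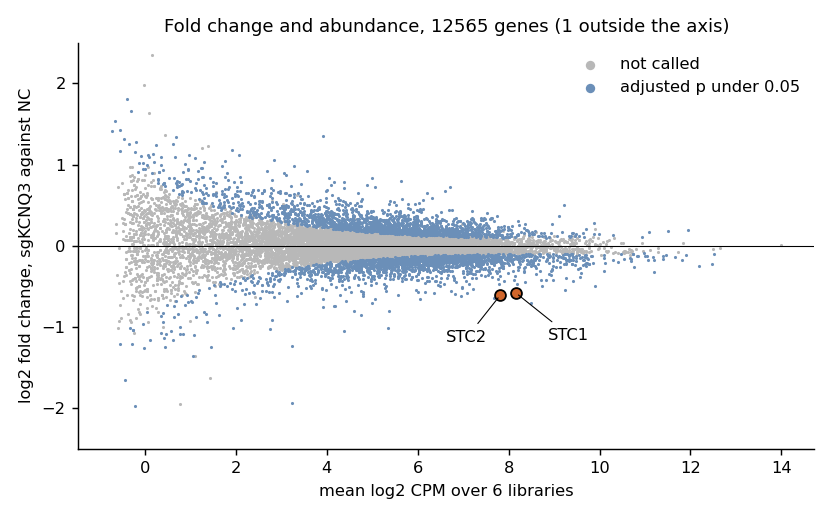
Log2 fold change of sgKCNQ3 against NC (vertical axis) by mean log2 CPM (horizontal axis) for 12565 tested genes, with called genes in blue, other genes in grey, the stanniocalcins in orange and 1 gene outside the axis. STC1 (-0.58) and STC2 (-0.61) sit at the lower edge of the genes of their abundance.

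The ratio of the 2 genes is also a description, since choosing both for a like difference fixes it to be similar in the groups. In TPM, the STC1 to STC2 ratio took the values 1.38, 1.38 and 1.40 across NC, compared with 1.44, 1.38 and 1.42 across sgKCNQ3. The ratio averaged 1.39 ± 0.0072 over the NC libraries and 1.41 ± 0.0271 over the sgKCNQ3 libraries (SD), and the ranges overlapped. Together the genes made up 241.8 to 247.8 TPM in NC and 171.3 to 175.3 TPM in sgKCNQ3.

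Each stanniocalcin was the gene nearest to the other over the 6 libraries. Likeness was measured as the root mean square distance between log2 CPM values centred on each gene's mean, among protein-coding genes whose mean log2 CPM reached 4. STC2 ranked 1 of 8391 genes by its distance to STC1, at 0.0221, where the median gene lay at 0.285 from STC1 and 0.301 from STC2. That rank is a description, since the pair was chosen for a like fall, and with 2 groups the measure mostly reflects the group difference. The next nearest to STC1 were TNFSF15 (0.0257), a cytokine of the TNF family, and CD274 (0.0273), which encodes the checkpoint ligand PD-L1. After these came the small MAF transcription factor MAFF (0.0277) and SNAPC1 (0.0324), a subunit of a complex needed to transcribe small nuclear RNAs. For STC2 the next nearest were the stress-inducible growth arrest gene GADD45A (0.0292), TNFSF15 (0.0299) and CD274 (0.0368). These genes lie on chromosomes 1, 9, 14 and 22. TNFSF15 and CD274 were near both stanniocalcins, CD274 going from 126 ± 3.15 to 85.2 ± 1.94 CPM and TNFSF15 from 46.9 ± 0.261 to 31.9 ± 1.29 CPM (SD over 3 libraries).

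Genes of the IGF axis on which stanniocalcins act were more often called higher than lower. Of 24 genes listed, 23 were in the table, 19 were tested, 9 were called higher (47.4%, against 14.0% of all tested genes) and 2 lower (10.5%, against 15.1%). The median log2 fold change of the 19 was 0.21, against -0.007 over all tested genes.

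The pappalysins were weakly expressed. PAPPA2 rose, from 4.08, 4.67 and 4.79 CPM in NC to 7.04, 5.83 and 6.95 CPM in sgKCNQ3 (log2 fold change 0.55, SE 0.13, edgeR adjusted p 0.00252), with every sgKCNQ3 library above every NC library. PAPPA, at 5.2 ± 0.307 CPM in NC against 6.19 ± 0.823 CPM, was not called although its groups did not overlap (log2 fold change 0.25, edgeR adjusted p 0.153). Per length these were 0.847 TPM for PAPPA and 0.727 TPM for PAPPA2 in NC, where STC1 and STC2 stood at 142.5 and 102.8 TPM. PRG2, whose product also binds and inhibits PAPP-A, had at most 3 counts in any library. Among the other proteases known to cut IGF binding proteins, ADAM9 (0.21), HTRA1 (0.22) and ADAM28 (0.46) rose on the log2 scale, and ADAM12 was not called (0.01). The call of ADAM28 ended in DESeq2, with the length and GC trends removed, and without sgKCNQ3 replicate 2.

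The binding proteins hold secreted IGF until a protease cuts them. IGFBP4, the classical PAPP-A substrate, was the most abundant of them per length at 1042 TPM in NC, and in CPM it fell from 1262, 1407 and 1326 to 1201, 1166 and 1182 (log2 fold change -0.17, SE 0.0379, edgeR adjusted p 0.00138). IGFBP2 fell too, with a log2 fold change of -0.19 (edgeR adjusted p 0.00924). The call of IGFBP4 ended on TPM, and that of IGFBP2 ended on TPM, with the length trend or the length and GC trends removed, and without NC replicate 2 or sgKCNQ3 replicate 2. IGFBP1 (-0.09), IGFBP3 (0.03), IGFBP5 (0.65) and IGFBP6 (0.04) were not called. IGFBP5, a substrate of both pappalysins, had 6 to 15 counts per library.

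Of the ligands, IGF2 rose from 4.67, 5.12 and 4.09 CPM in NC to 6.91, 5.58 and 6.76 CPM in sgKCNQ3 (log2 fold change 0.47, SE 0.133, edgeR adjusted p 0.00927), a call that ended without NC replicate 3 and in DESeq2. IGF1 had at most 1 count. The signalling receptor genes IGF1R (0.21) and INSR (0.27), the clearance receptor gene IGF2R (0.18) and the adaptor gene IRS1 (0.27) rose as well, and IRS2 (-0.04) and SHC1 (-0.06) were not called. Those 4 have long transcripts, of 12235 bases for IGF1R, 8954 for INSR, 14044 for IGF2R and 9705 for IRS1, and each lost its call with the length and GC trends removed, at log2 fold changes of 0.10, 0.16, 0.07 and 0.16. INSR lost its call in 8 of 18 alternatives, among them leaving out either NC replicate 1 or 3 or either sgKCNQ3 replicate 1 or 3. With the length and GC trends removed, 5 of 19 list genes were called: PAPPA2 (0.43), ADAM9 (0.17), HTRA1 (0.30) and IGF2 (0.45) higher, and IGFBP4 (-0.09) lower. Of all 12509 genes tested in that setting, 1320 were called higher and 2005 lower.

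**Figure D3:**
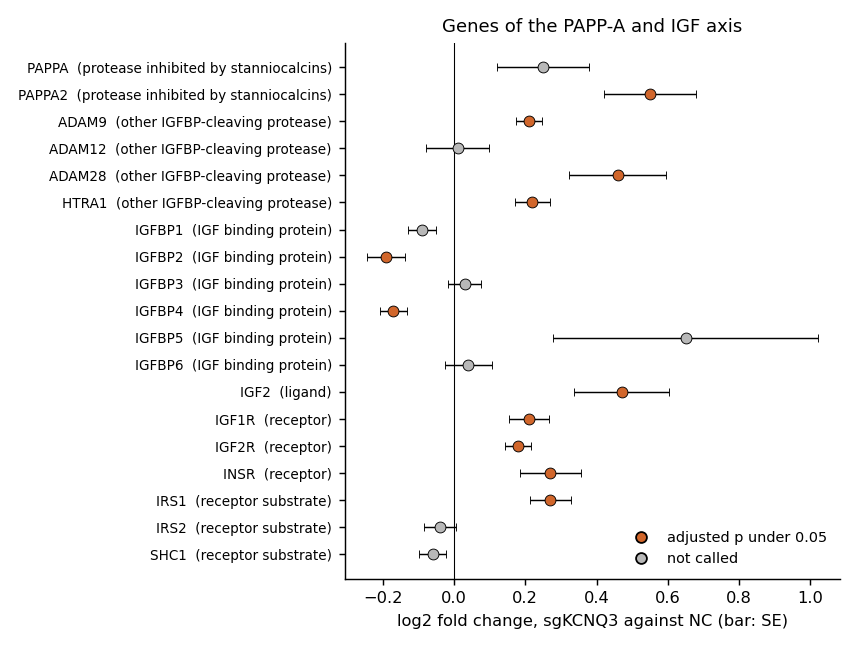
Log2 fold change of sgKCNQ3 against NC (horizontal axis, bars are the SE) for the 19 tested genes of the PAPP-A and IGF axis, ordered by role, with genes past an adjusted p of 0.05 in orange and the others in grey. PAPPA2 (0.55) and IGF2 (0.47) stand farthest right among the called genes, and IGFBP2 (-0.19) and IGFBP4 (-0.17) are the called genes left of 0.

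Calcium and phosphate handling is the classical setting of stanniocalcin action. Of 20 such genes listed and 15 tested, 4 were called higher (26.7%, beside 14.0% of all tested genes), 1 lower (6.67%, beside 15.1%) and 10 not called, with log2 fold changes of -0.10 to 0.34 among the 10. SLC20A1, the most abundant of the listed phosphate importer genes per length at 136 TPM in NC, fell (log2 fold change -0.21, edgeR adjusted p 0.000177), a call lost on TPM. The phosphate exporter gene XPR1 rose (0.27), as did the plasma membrane calcium pump gene ATP2B4 (0.43), the reticulum pump gene ATP2A2 (0.16) and ITPR3 (0.12), a calcium release channel. XPR1 lost its call with the length and GC trends removed, ATP2A2 with the length trend removed, and ITPR3 with either and without NC replicate 1, sgKCNQ3 replicate 1 or sgKCNQ3 replicate 3. STIM1 (0.11), STIM2 (0.10), ORAI1 (-0.10), ORAI2 (0.00) and ORAI3 (-0.01), which make up store-operated calcium entry, were not called. CASR, the calcium-sensing receptor gene, had 9 to 19 counts per library, and the epithelial calcium channel gene TRPV6 at most 3.

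Transcripts of ATF4 and its targets, a list without STC2, were mostly lower. With 25 of them tested, 18 passed as lower (72.0%, against 15.1% of all tested genes) and 2 as higher (8.0%, against 14.0%). Their median log2 fold change was -0.21, against -0.007 over all tested genes. On log2(TPM + 1), 13 of the 25 were called lower and 2 higher, beside 613 lower and 2588 higher among all 12565 tested genes. ATF4 itself fell by 0.22 on the log2 scale, from 662 ± 14.1 CPM in NC to 569 ± 23.9 CPM. The 4 smallest p-values belonged to PPP1R15A (-0.50), a phosphatase subunit that reverses the stress response, the transcription factor gene ATF3 (-0.47), SESN2 (-0.41), a stress-inducible inhibitor of mTORC1, and SLC3A2 (-0.43), an amino acid transporter subunit. Among the called ATF4 genes, none was lower than the stanniocalcins, and the only tested gene below them was FGF21 (-0.67), not called at 0.87 CPM in NC. That place is a description, since the stanniocalcins were chosen for their fall. The 2 genes called higher were NUPR1 (0.32) and VLDLR (0.16), and VLDLR lost its call in 9 of 18 alternatives.

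Of 28 HIF-1 targets tested, 11 were called lower (39.3%, beside 15.1% of all tested genes), 5 higher (17.9%, near the 14.0% of all tested genes) and 12 not, with a median of -0.05. Those with the smallest p-values were CA12 (0.77), a carbonic anhydrase, and the oxygen sensor gene EGLN3 (0.56), which rose, and ANGPTL4 (-0.34) and NDRG1 (-0.26), which fell. CA9, a widely used hypoxia marker, stood at 1.98 CPM in NC and was not called (-0.01). VEGFA and DDIT4 belong to this list and to that of ATF4, and were called lower at -0.18 and -0.21. The call of DDIT4 ended on TPM and once length and GC trends were taken out, and that of NDRG1 on log2(TPM + 1). On log2(TPM + 1), 5 HIF-1 targets were called higher and 3 lower. Of all 12565 genes tested on that scale, 2588 were called higher and 613 lower.

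Of 10 genes that report MEK/ERK output, 6 were called lower (60.0%, where 15.1% of all tested genes were) and 2 of the 10 higher (where 14.0% were), with a median of -0.21 against -0.007 over all tested genes. PHLDA1 (-0.35), the receptor gene EPHA2 (-0.35) and DUSP6 (-0.38), an ERK phosphatase gene, fell, and the phosphatase gene DUSP4 (0.34) rose. No member of this list was as low as STC1, and nothing is read from this, since STC1 was chosen for its fall. On log2(TPM + 1), 3 of the 10 were called lower and 2 higher, where 613 of all 12565 tested genes were called lower and 2588 higher.

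Of the coding genes described here around the stanniocalcins, 1 was called lower, 1 was called higher and the others were not called or not tested. The 3 genes on each side of STC1 and of STC2 in RefSeq (GRCh38.p14) are non-coding apart from NKX2-6, and none has a row in the table. Nearby coding genes with a row were therefore taken, a choice made outside the naming rule. Beside STC1, ADAM28 (439 kb away) rose (log2 fold change 0.46, edgeR adjusted p 0.0122), while SLC25A37 (0.09) was not called and NEFL had at most 3 counts. Beside STC2, BNIP1 (150 kb) fell (-0.37, edgeR adjusted p 0.0024), and CREBRF (0.19), BOD1 (-0.06) and CPEB4 (0.07) were not called.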

How the data were processed

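RNA of 3 NC and 3 sgKCNQ3 libraries of RBE cells was compared, grouped by title. The deposited estimated counts (expected counts) were not normalized, and 5.52% to 6.33% per library were not whole. The authors' TPM and FPKM values, and a signal column of their read counts divided by 1 factor per library, stood beside them, per the file headers. The submitters' processing notes name the build GRCh38.p13. The aligner was not given in the sources used here.

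Counts were rounded and tested in edgeR 4.0.16 (R 4.3.3) with filterByExpr (minimum count 10; 12565 genes kept, 3635 removed), TMM scaling, robust quasi-likelihood F tests and Benjamini-Hochberg adjustment at 0.05. Each SE is the log2 fold change over the root of the F statistic. The procedure was tested on simulated data. DESeq2 1.42.0 and limma 3.58.1 served as alternatives, with other scalings, filters, a replicate block, length and GC trends removed (splines, 5 degrees of freedom) and each library left out. Scaling by the authors' factors was added after seeing the data.

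No 2 libraries agreed within sampling noise: chi-square per degree of freedom was 1.63 to 4.18 within groups. For 1 gene, an exact permutation test of 3 against 3 cannot go below 0.1. The 2 genes and all lists were chosen with earlier results of these data known. Named were KCNQ3, called members of the IGF and calcium lists, the 4 smallest p-values of the other lists, flanking genes and the 5 genes nearest to each stanniocalcin. Some of these genes are not reported here. RefSeq types matched 16163 genes and GENCODE transcripts 16032. Figures used matplotlib 3.10.9.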

Additional observations from a re-analysis of the deposited data

How the results depend on the processing

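STC1 and STC2 were lower in sgKCNQ3 under each of the 18 alternatives. The log2 fold change moved by more than the replicate SD on log2(TPM + 1), to -0.48 for STC1 and -0.51 for STC2, on log2(TPM + 0.1), to -0.49 and -0.52, and for STC1 with library size alone, to -0.54. Leaving out 1 library at a time gave -0.59 to -0.56 for STC1 and -0.63 to -0.58 for STC2. DESeq2 called 2322 genes against 3658 with edgeR, and leaving out 1 library gave 2687 to 3471. Called members of the IGF list went from 11 to 6 with the length trend removed (16 genes tested) and to 5 with the length and GC trends removed. Over all genes tested, 2869 of 11519 and 3325 of 12509 were called in these settings. With the length trend alone removed, PAPPA, PAPPA2 and IGFBP5 were not tested. IRS2 was newly called lower there (log2 fold change -0.15, edgeR adjusted p 0.0106). HIF-1 targets called went from 16 to 8 on log2(TPM + 1) and 9 on log2(TPM + 0.1), and MEK/ERK output genes from 8 to 5 on both. Over all 12565 genes tested, 3201 and 3178 were called on these scales, against 3658 in the main fit. The cause of these changes was not tested. The other counts stayed within 1.5 times.

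The replicate number did not pair the samples: deviations of same-numbered libraries correlated at 0.003, -0.098 and -0.03, and no library correlated best with its own number. With the replicate block, the log2 fold changes were -0.58 for STC1 and -0.61 for STC2, 3136 genes were called, and 11, 5, 19, 14 and 8 members of the IGF, calcium and phosphate, ATF4, HIF-1 and MEK/ERK lists.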
